A study of Arabidopsis thaliana with 32 samples.

Results

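The 34 genes described here make glucosinolates or control the genes that do so, and they were found by their locus among the 27655 genes of the deposited count and TPM tables. They comprise 9 genes of methionine chain elongation, 9 genes of aliphatic core synthesis and side-chain oxidation, 2 genes shared by both branches, 8 genes of the indole branch, and 6 MYB transcription factors, of which MYB28, MYB29 and MYB76 act on the aliphatic branch and MYB34, MYB51 and MYB122 on the indole branch. All 34 loci were present in both tables, and 33 had counts above 0.

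Chain elongation comprises BCAT4 (AT3G19710), MAM1 (AT5G23010), MAM3 (AT5G23020), the isomerase subunits IPMI1 (AT3G58990), IPMI2 (AT2G43100) and IIL1 (AT4G13430), the dehydrogenase IPMDH1 (AT5G14200), BCAT3 (AT3G49680) and the plastid carrier BAT5 (AT4G12030). The aliphatic core comprises CYP79F1 (AT1G16410), CYP79F2 (AT1G16400), CYP83A1 (AT4G13770), GSTF11 (AT3G03190), GSTU20 (AT1G78370), AT2G31790, SOT18 (AT1G74090), SOT17 (AT1G18590) and FMO GS-OX1 (AT1G65860), and the shared genes are SUR1 (AT2G20610) and GGP1 (AT4G30530). The indole branch comprises CYP79B2 (AT4G39950), CYP79B3 (AT2G22330), CYP83B1 (AT4G31500), GSTF9 (AT2G30860), GSTF10 (AT2G30870), UGT74B1 (AT1G24100), SOT16 (AT1G74100) and CYP81F2 (AT5G57220). The regulators are MYB28 (AT5G61420), MYB29 (AT5G07690), MYB76 (AT5G07700), MYB34 (AT5G60890), MYB51 (AT1G18570) and MYB122 (AT1G74080).

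Glucosinolates are sulfur-rich glucosides that cabbage-family plants store against herbivores and pathogens, and the enzyme myrosinase turns them into toxic products when tissue is damaged. Aliphatic glucosinolates of Arabidopsis come mostly from methionine, whose side chain is first lengthened in a cycle led by BCAT4 and the MAM synthases. Indole glucosinolates come from tryptophan. In both branches a CYP79 enzyme makes an aldoxime and a CYP83 enzyme activates it, after which glutathione conjugation, C-S cleavage, glucosylation and sulfation complete the core.

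The plants carried p35s:HF-RPL18, a tagged ribosomal protein under the 35S promoter, in every group, controls included. They grew in hydroponics for 6 weeks under 10 h of light and 14 h of darkness a day. Treatment then lasted 1 day, with magnesium (CK) or without it (MgD), sodium sulfate taking the place of magnesium sulfate in the MgD solution. Root and shoot were each sampled for total RNA and for TRAP RNA, the RNA bound to captured tagged ribosomes, which gave 8 groups of 3 libraries. A 35S-driven tag reports on the cells in which that promoter is active, and the labels do not say how evenly that is. Library totals ranged from 6147531 to 41472378 counts. The replicates are called independent but are not traced to separate plants, so p-values rest on library-to-library spread, part of which may be technical. All shoot TRAP libraries carry the lane label L002 and all others L001, so RNA type and lane cannot be told apart in shoot. For Root Total MgD replicate 3 the deposited TPM trace back to 11727584 reads, whereas its counts sum to 6147531, so TPM and CPM of this library are different measurements.

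The tissue labels held against the summed levels of their markers. The summed level of 20 photosynthesis genes was 122043 to 144420 TPM in shoot libraries and 877 to 5739 TPM in root libraries, and that of 8 root genes was 71.0 to 529 TPM in root and 31.7 to 42.7 TPM in shoot, where CASP1 and CASP2 of the endodermis were at 0 counts in all TRAP libraries. Not every gene of the root list was low in shoot. SCR had 132 to 279 counts in Root TRAP CK and more, 744 to 1283, in Shoot TRAP CK libraries. SHR had 973 to 1510 and 758 to 1122 counts in the same groups. Fewer cells of a type and less RNA per cell cannot be told apart in these bulk samples.

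Both branches hold pairs of neighbouring, similar genes, and the sequences of the aliphatic pair CYP79F1 and CYP79F2, which differ between tissues in opposite directions, are shown first, because reads must be told apart between the members of a pair. CYP79F1 and CYP79F2, the cytochromes P450 that turn chain-elongated methionine into aldoximes, lie 1183 bases apart on chromosome 1, at 1:5608682-5612064 and 1:5605044-5607498 on the plus strand of TAIR10.1 (RefSeq). MAM1 and MAM3, the synthases that lengthen methionine, lie 11144 bases apart on chromosome 5, also on the plus strand. Over their aligned coding bases CYP79F1 and CYP79F2 were 91.9% identical, with coding lengths of 1617 and 1614 bases, and MAM1 and MAM3 were 84.7% identical. Of all windows of 50 bases of the longest transcript, untranslated parts included, 2.0% of those of CYP79F1 also stood in CYP79F2. The share was 2.74% the other way, while MAM1 and MAM3 shared none. Most windows of that length therefore tell the genes apart. A coding stretch of 180 bases shows this for the CYP79F genes, at 1:5609162-5609341 for CYP79F1 and 1:5605528-5605707 for CYP79F2, with the 15 bases that differ in capitals.
CYP79F1 coding stretch: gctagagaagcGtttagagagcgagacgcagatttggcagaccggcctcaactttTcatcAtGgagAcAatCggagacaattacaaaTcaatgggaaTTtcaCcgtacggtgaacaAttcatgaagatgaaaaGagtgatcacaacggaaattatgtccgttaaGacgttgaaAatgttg
CYP79F2 coding stretch: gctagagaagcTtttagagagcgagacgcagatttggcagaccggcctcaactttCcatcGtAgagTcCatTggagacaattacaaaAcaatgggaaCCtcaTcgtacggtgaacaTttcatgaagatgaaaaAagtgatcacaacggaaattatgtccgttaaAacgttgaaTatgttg

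The 300 bases before each annotated start of the CYP79F genes are shown because these genes differ in tissue while lying side by side. They span 1:5608382-5608681 for CYP79F1 and 1:5604744-5605043 for CYP79F2. Capitals mark runs of at least 8 bases that also occur on the same strand in the partner's stretch.
CYP79F1 promoter: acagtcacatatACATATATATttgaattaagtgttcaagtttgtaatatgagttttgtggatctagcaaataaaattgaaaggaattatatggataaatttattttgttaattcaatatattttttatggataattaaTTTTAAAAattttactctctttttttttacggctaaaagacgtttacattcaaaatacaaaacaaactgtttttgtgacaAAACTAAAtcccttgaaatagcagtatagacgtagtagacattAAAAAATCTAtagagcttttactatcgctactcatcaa
CYP79F2 promoter: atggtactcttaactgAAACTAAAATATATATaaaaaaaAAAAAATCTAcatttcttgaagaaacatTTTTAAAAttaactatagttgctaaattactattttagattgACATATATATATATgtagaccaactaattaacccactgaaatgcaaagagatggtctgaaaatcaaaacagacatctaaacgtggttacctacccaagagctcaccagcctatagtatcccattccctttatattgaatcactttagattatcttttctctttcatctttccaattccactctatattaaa
Identity of the CYP79F promoters was 73.1% over aligned bases and 53.3% over the whole alignment with its gaps. CACGTG, searched on both strands as the letters that MYC-type factors bind, occurred in 3 of 34 promoters of the described genes (8.82%), those of IIL1, CYP83A1 and SUR1, and in 1945 of 27443 promoters of the same length (7.09%). ACCNAAC, searched likewise for MYB-type factors, occurred in 5 of 34 (14.7%) and in 16.8% of all promoters. Both promoters printed above held neither motif, which says only that these letters are not in these windows.

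The levels in TPM, which are set per gene length, show which genes dominate each branch. In CK root total RNA, GSTF9 and GSTF10, the glutathione transferases assigned to the indole branch, stood at 3266 ± 436 and 2018 ± 471 TPM (mean ± SD, n = 3), above every other gene described. MAM3 (1107 ± 254 TPM) and BCAT4 (993 ± 265 TPM) headed the aliphatic branch there. In CK shoot total RNA GSTF9 was again highest at 621 ± 106 TPM, with CYP83A1 (365 ± 40.9 TPM), CYP83B1 (338 ± 41.9 TPM) and GSTU20 (282 ± 55.8 TPM) next. CYP83A1 was above GSTU20 in each of the 3 libraries, and the order of these 3 levels was not tested. Together the 34 genes held 1.51% of all TPM in CK root total RNA, 2.27% in CK root TRAP RNA, 0.348% in CK shoot total RNA and 1.14% in CK shoot TRAP RNA.

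GSTF11, a glutathione transferase of the aliphatic core, had 0 counts in all 24 libraries. Its annotated exons (3:734892-735987, plus strand) are overlapped over 100% of their bases by AT3G03200 on the opposite strand. Among 368 protein-coding genes overlapped in full, 275 (74.7%) were at 0 in all libraries, against 2699 of 26883 genes (10%) overlapped for less than 90%. How overlapping reads were counted is not stated, so the 0 of GSTF11 cannot be read as absence of its RNA. BCAT4 (21.2% of exon bases) and AT2G31790 (18.6%) also share bases with genes on the opposite strand, so their counts are less certain than the others.

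**Figure D1:**
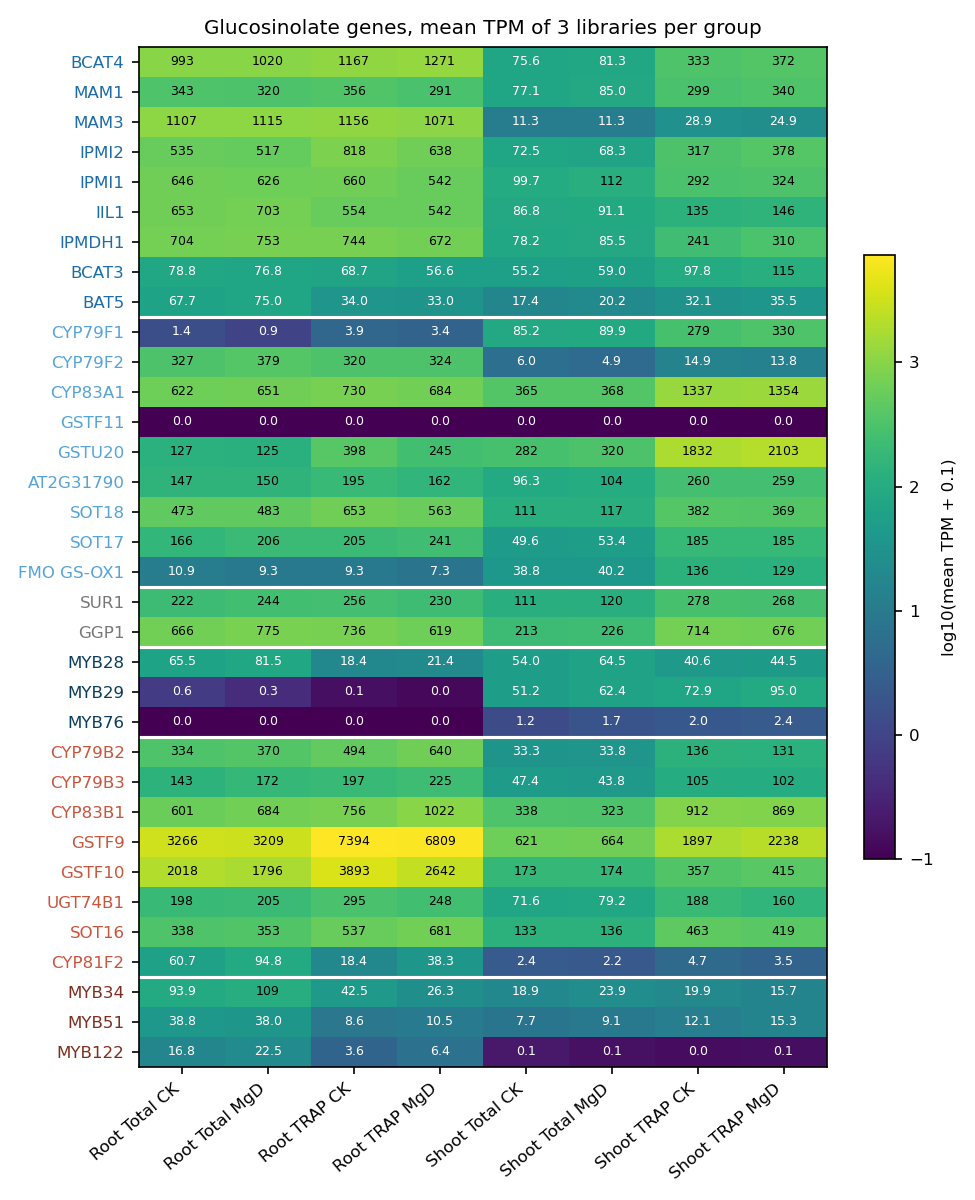
Mean TPM of the 34 genes (rows, by role) in the 8 groups (columns), n = 3 libraries each, coloured by log10(mean TPM + 0.1) with the mean written in each cell. MAM3 and CYP79F2 are high in root and low in shoot, CYP79F1 and MYB29 the reverse, and GSTF11 is at 0 throughout.

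The branches were compared through the summed TPM of their enzymes in each library, as a description without a test. In CK root total RNA the aliphatic enzymes, with the chain elongation genes and the carrier BAT5, summed to 5851, 6780 and 8374 TPM in the 3 libraries and the indole enzymes to 7872, 6030 and 6981 TPM. The log2 ratio of aliphatic to indole was -0.43, 0.17 and 0.26, so neither branch was higher in all 3 libraries. In CK root TRAP RNA the indole sum was higher in each library, with log2 ratios of -0.95, -0.47 and -0.84.

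In shoot the aliphatic sum was the higher one in each library. It was 1482, 1425 and 1914 TPM in CK total RNA against an indole sum of 1462, 1228 and 1568 TPM. The log2 ratio was 0.02, 0.21 and 0.29 there and 0.72, 0.51 and 0.58 in CK TRAP RNA. All 3 shoot TRAP libraries lay above all 3 shoot total libraries, and all 3 root TRAP libraries lay below all 3 root total libraries.

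Under MgD the ratios, with GSTF9 and GSTF10 included, were close to those of CK. They were -0.25, 0.17 and 0.29 in root total, -1.01, -0.53 and -0.74 in root TRAP, 0.16, 0.25 and 0.27 in shoot total and 0.71, 0.63 and 0.60 in shoot TRAP RNA. In each tissue and RNA type the range of the 3 MgD libraries overlapped that of the 3 CK libraries.

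The ratio turned on GSTF9 and GSTF10, which held 75.7% of the indole sum in CK root total RNA, 83.1% in CK root TRAP, 55.9% in CK shoot total and 55.6% in CK shoot TRAP RNA. Without them the mean log2 ratio was 2.05, 1.89, 1.36 and 1.78 in the same order, so the aliphatic sum was then higher in every group. That sum holds the chain elongation genes and more genes than the indole sum. The core genes alone averaged 1874 TPM in Root Total CK, 2515 in Root TRAP CK and 2229 in Root TRAP MgD. The indole enzymes without GSTF9 and GSTF10 averaged 1676, 2298 and 2853 TPM there. The core mean was thus lower in Root TRAP MgD and higher in all other groups. The root TRAP libraries then overlapped the root total libraries. Without both genes the 3 Shoot TRAP MgD libraries, at 1.91, 2.05 and 2.08, also lay above the 3 Shoot TRAP CK libraries, at 1.82, 1.66 and 1.84, and the Root TRAP mean was 1.35 under MgD, with overlapping libraries. Within the aliphatic branch, chain elongation genes summed to 5128 ± 1049 TPM in CK root total RNA and 574 ± 118 TPM in CK shoot total RNA, whereas the core genes summed to 1874 ± 259.8 and 1033 ± 156 TPM. The elongation sum was thus above the core sum in root and below it in shoot.

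The MYB regulators of the branches were summed in the same way. MYB28, MYB29 and MYB76 together against MYB34, MYB51 and MYB122 gave log2 ratios of -0.66, -1.33 and -1.26 in CK root total and -1.36, -1.10 and -2.37 in CK root TRAP RNA. In shoot they were 1.98, 1.86 and 2.12 and 1.91, 1.85 and 1.81. Aliphatic regulators were below indole regulators in all 12 root libraries and above them in all 12 shoot libraries.

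**Figure D2:**
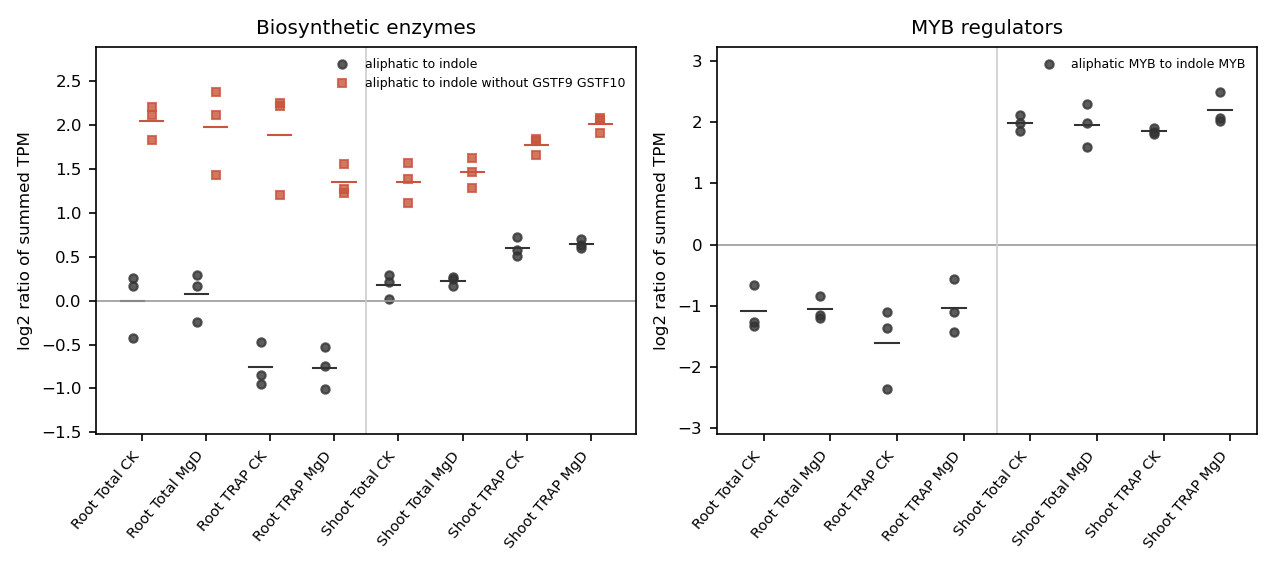
Log2 ratio of summed TPM per library (points) in the 8 groups: left, aliphatic to indole enzymes with and without GSTF9 and GSTF10; right, aliphatic to indole MYB regulators. With GSTF9 and GSTF10, root TRAP libraries lie below 0 and shoot TRAP libraries above it; without them all groups lie above 0. The regulator ratio is negative in root and positive in shoot.

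Root and shoot were compared first in CK total RNA, to place each step of the pathway in the plant. Of the 9 chain elongation genes 8 were higher in root and none was lower, and 7 of 8 indole enzymes and all 3 indole MYB regulators were higher there too. The aliphatic core was split, with 3 genes higher and 3 lower of 8 measured, and all 3 aliphatic MYB regulators were lower in root. Over the 33 measured genes, 22 were higher and 6 lower by the edgeR quasi-likelihood test with Benjamini-Hochberg adjustment over 21163 genes, of which 33.6% were higher and 31.1% lower. The median log2 difference was 1.12 for the 33 genes and 0.07 for all genes tested.

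Among the enzymes the CYP79F pair showed the widest contrast in opposite directions. CYP79F1, which acts on short and long elongated chains, was listed at 1.30, 1.09 and 1.67 TPM in CK root total RNA and 69.6, 70.2 and 116 TPM in CK shoot total RNA. CYP79F2, which acts on long chains, was at 284, 297 and 400.7 TPM in root and 5.79, 5.47 and 6.76 TPM in shoot. Each gene was low in every library of one tissue and high in every library of the other, with opposite tissues for the pair. CYP79F1 averaged 2.04 ± 0.442 TMM-scaled CPM in root and 228 ± 69.5 in shoot, a log2 difference of -6.81 ± 0.37 (SE, edgeR adjusted p 5.9e-13). For CYP79F2 the CPM were 303 ± 48.2 and 9.94 ± 1.03, a log2 difference of 4.93 ± 0.19 (adjusted p 1.1e-15). The root counts of CYP79F1 were 56, 78 and 112, so its small root level rests on few reads.

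Of the 2 synthases, MAM3, which can make all chain lengths, followed CYP79F2. Its values were 828, 1169 and 1324 TPM in root and 10.6, 12.7 and 10.5 TPM in shoot, a log2 difference of 5.77 ± 0.20 (adjusted p 3.44e-16). MAM1, which makes mainly short chains, was at 260.2, 359 and 411 TPM in root and 60.6, 71.1 and 99.7 TPM in shoot. Its libraries did not overlap either, but its log2 difference of 1.31 ± 0.21 was smaller than that of MAM3. The other elongation genes called, BCAT4, IPMI1, IPMI2, IIL1, IPMDH1 and BAT5, were 1.12 to 2.87 higher on the log2 scale, with the aminotransferase BCAT4 at 709.8, 1033 and 1236 TPM in root and 61.6, 64.4 and 101 TPM in shoot. BCAT3, the aminotransferase at the end of the cycle, was not called (log2 -0.32 ± 0.15, adjusted p 0.0609).

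Further down the aliphatic core, CYP83A1, the P450 after the CYP79F step, stood at 508, 597 and 762 TPM in root and 355, 330 and 410 TPM in shoot. Its TMM-scaled CPM overlapped, and its log2 difference of -0.07 ± 0.19 was not called. GSTU20, a glutathione transferase, was lower in root (log2 -1.97 ± 0.26), and so was FMO GS-OX1, which oxidises the side-chain sulfur (-2.66 ± 0.30). The sulfotransferases SOT18 (1.27 ± 0.17) and SOT17 (0.91 ± 0.20) were higher in root. GGP1, which trims the glutathione conjugate in both branches, was higher in root (0.81 ± 0.12), and SUR1, the C-S lyase of both branches, was not called (0.16 ± 0.14).

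In the indole branch, CYP79B2 and CYP79B3 both turn tryptophan into its aldoxime. CYP79B2 was listed at 342, 279 and 382 TPM in root and 33.7, 26.9 and 39.4 TPM in shoot, and CYP79B3 at 116, 137 and 177 TPM in root and 42.95, 42.5 and 56.8 TPM in shoot. Both were higher in every root library than in any shoot library. The log2 difference was 2.50 ± 0.28 for CYP79B2 and 0.75 ± 0.23 for CYP79B3 (adjusted p 7.66e-08 and 0.007).

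CYP83B1, the next P450 of the branch, was at 560.4, 580.2 and 664 TPM in root and 377, 293 and 344 TPM in shoot and was not called (526 and 526 CPM). GSTF9 (3667, 2802 and 3330 TPM in root and 597, 529 and 737 in shoot) and GSTF10 (2554, 1668 and 1833 TPM in root total and 182, 152 and 185 TPM in shoot total RNA) were higher in root by 1.58 ± 0.19 and 2.74 ± 0.24 on the log2 scale. CYP81F2, which hydroxylates the indole ring, was at 34.9, 84.4 and 62.7 TPM in root and 3.29, 1.91 and 2.10 TPM in shoot, a log2 difference of 3.77 ± 0.61. The glucosyltransferase UGT74B1 (0.64 ± 0.13) and the sulfotransferase SOT16 (0.54 ± 0.20) differed less. The SOT16 call was lost without Root Total CK replicate 1 (log2 0.31, adjusted p 0.174) or Shoot Total CK replicate 2 (0.45, 0.09).

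Among the regulators, MYB28 was the aliphatic MYB present in both tissues, at 45.05, 78.7 and 72.7 TPM in root and 51.97, 54.5 and 55.3 TPM in shoot. Its TPM overlapped. Its TMM-scaled log2 difference was -0.57 ± 0.23 (adjusted p 0.0313), but the call was lost without any of 3 libraries (Root Total CK replicate 1: log2 -0.43, adjusted p 0.141; Shoot Total CK replicate 2: -0.55, 0.0696; Shoot Total CK replicate 3: -0.56, 0.0669), and with library size only the sign turned (0.13). MYB29 was at 0.613, 0.475 and 0.675 TPM in root and 49.6, 44.7 and 59.4 TPM in shoot, a log2 difference of -7.29 ± 0.27 on 56 root counts. MYB76 had 0 counts in all 12 root libraries and 0.946, 1.44 and 1.21 TPM in CK shoot total RNA. In CPM without TMM scaling, and against a floor of 3 counts over the root group, MYB76 was at least 37.8-fold lower in root. That floor covers counting error only and would be too low, and the bound too high, if mates were counted singly.

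The indole regulators were higher in root. MYB34 was at 35.04, 128 and 119 TPM in root and 16.1, 22.4 and 18.4 TPM in shoot, with replicate 1 of the root group far below the other two, and its log2 difference was 1.43 ± 0.35 although its CPM overlapped with those of shoot. MYB51 was at 23.3, 51.6 and 41.3 TPM in root and 9.47, 5.31 and 8.30 TPM in shoot, a log2 difference of 1.48 ± 0.31. MYB122 was at 13.9, 20.4 and 16.1 TPM in root and 0.338, 0 and 0 TPM in shoot, where it had 8 counts in all, with a fitted log2 difference of 6.25 ± 0.67.

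Library size alone, without TMM scaling, moved the median over the 103 listed genes by 0.69 on the log2 scale in this comparison, so directions are relative to TMM scaling. With it 27 of the 33 genes were higher and 5 lower, and limma on log2(TPM + 1) gave 27 higher and 4 lower of 32. BCAT3, AT2G31790, SUR1, CYP83A1 and CYP83B1, not called with TMM scaling, were then called higher in root (log2 0.37 to 0.86 with library size only).

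**Figure D3:**
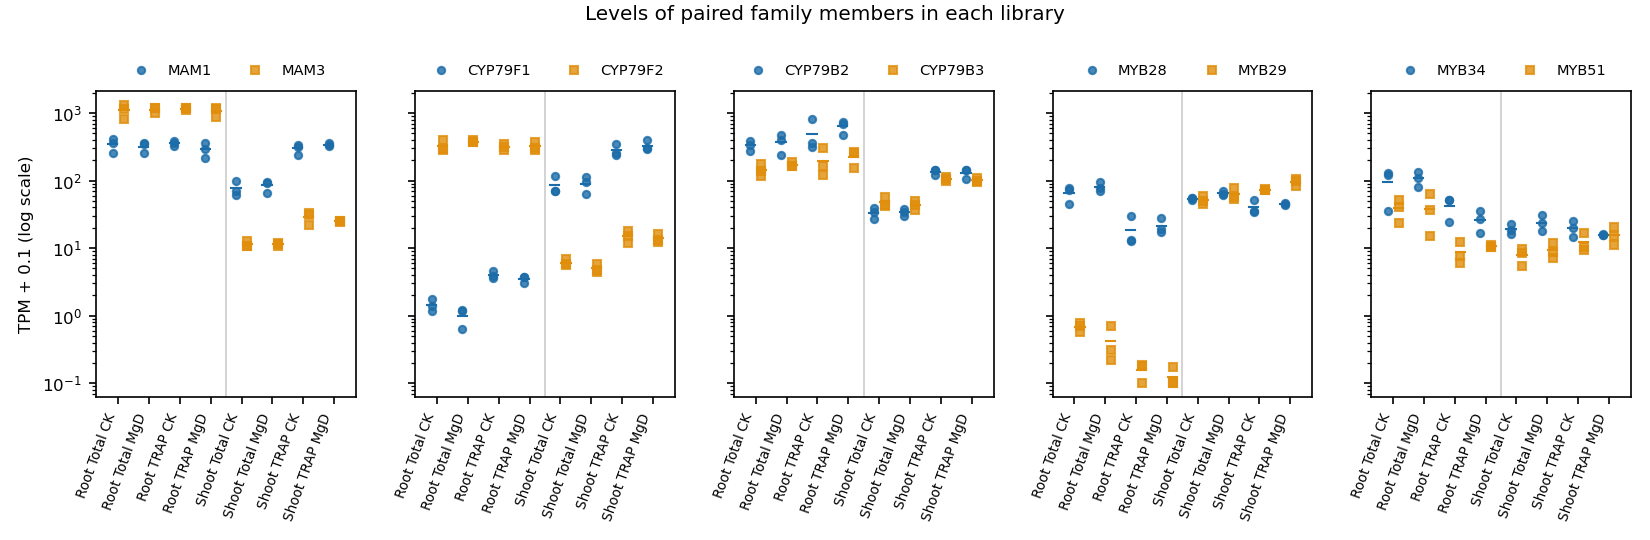
TPM + 0.1 in each library (points, log axis) and group means (short lines) of the pairs MAM1 and MAM3, CYP79F1 and CYP79F2, CYP79B2 and CYP79B3, MYB28 and MYB29, and MYB34 and MYB51 in the 8 groups, n = 3 each. CYP79F1 and CYP79F2 change places between root and shoot, MAM3 falls far below MAM1 in shoot, and MYB29 is close to 0 in root.

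The same contrast in CK TRAP RNA kept the directions of the widest differences. Others narrowed, such as that of MAM1, or widened toward lower in root, such as those of CYP83A1 and FMO GS-OX1. Here tissue and lane label cannot be told apart, since L002 marks all shoot TRAP libraries and no root library. Of 33 genes measured, 16 were higher and 11 lower in root by edgeR, against 35.9% and 32.9% of 21163 genes, and the median log2 difference was -0.0012, against 0.06 for all genes. Chain elongation had 6 higher and 1 lower, the core 2 higher and 5 lower, the indole enzymes 6 higher, and the aliphatic regulators 3 lower. Of the indole regulators, 2 were higher and MYB51 was lower.

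CYP79F1 was listed at 3.77, 4.51 and 3.49 TPM in root TRAP and 344, 238 and 256 TPM in shoot TRAP RNA, a log2 difference of -6.42 ± 0.36. CYP79F2 was at 288, 354 and 318 TPM in root TRAP and 17.97, 11.7 and 14.9 TPM in shoot TRAP RNA (4.16 ± 0.18). MAM3 stood at 1094, 1200 and 1173 TPM in root TRAP and 31.4, 21.9 and 33.3 TPM in shoot TRAP RNA (5.07 ± 0.19). These 3 genes kept separate root and shoot libraries, as in total RNA. MAM1 did not: with 382, 364 and 323 TPM in root and 337, 242 and 319 TPM in shoot its log2 difference was -0.0012 ± 0.20 (adjusted p 0.9997).

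CYP83A1 was lower in root TRAP RNA, with 669, 909 and 613 TPM in root and 1500, 1285 and 1225 TPM in shoot (log2 -1.14 ± 0.19, adjusted p 1.55e-05). GSTU20 (-2.44 ± 0.27), FMO GS-OX1 (-4.12 ± 0.32), AT2G31790 (-0.68 ± 0.14) and BCAT3 (-0.76 ± 0.15) were lower as well. GSTF9 (1.71 ± 0.19) and GSTF10 (3.21 ± 0.24) remained higher in root. CYP79B2 was at 311, 358 and 813 TPM in root and 143, 141 and 123 TPM in shoot (1.59 ± 0.27), and CYP79B3 at 123, 165 and 303 TPM in root TRAP and 97.9, 104 and 112 TPM in shoot TRAP RNA (0.65 ± 0.23). Replicate 3 was the highest root library for both, and without it the call of CYP79B3 was lost (log2 0.21, adjusted p 0.333). CYP83B1, at 416, 618 and 1235 TPM in root and 1014, 902 and 821 TPM in shoot, had its highest root library in replicate 3 too and was not called (-0.54 ± 0.26, adjusted p 0.0671).

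For the regulators, MYB28 was at 12.8, 29.3 and 13.1 TPM in root TRAP and 34.7, 35.4 and 51.8 TPM in shoot TRAP RNA, with no overlap (log2 -1.40 ± 0.23). MYB29 had 0.0843, 0.0808 and 0 TPM in root, from 4 counts in all, and 71.7, 75.3 and 71.7 TPM in shoot. MYB76 was at 0 in root and 2.55, 1.08 and 2.51 TPM in shoot. In CPM without TMM scaling it was at least 43.3-fold lower in root against the same floor. MYB122 was at 2.71, 3.67 and 4.45 TPM in root and 0.0558, 0 and 0.0823 TPM in shoot, where it had 4 counts. MYB34 (24.5, 51.6 and 51.3 TPM in root and 19.7, 14.4 and 25.5 in shoot) was called higher in root (0.83 ± 0.35) and MYB51 (5.89, 7.60 and 12.3 TPM in root TRAP and 9.22, 16.7 and 10.4 TPM in shoot TRAP RNA) lower (-0.75 ± 0.31), with edgeR adjusted p of 0.0423 and 0.0358 and overlapping libraries in both. The MYB34 call was lost without Root TRAP CK replicate 2 or 3 or Shoot TRAP CK replicate 1 or 2 (adjusted p 0.0727 to 0.162), and the MYB51 call without Root TRAP CK replicate 1 or 2 or Shoot TRAP CK replicate 2 (0.105 to 0.219).

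Leaving out 1 library also ended the call of SUR1 (without Root TRAP CK replicate 1 or 2 or Shoot TRAP CK replicate 1), of CYP81F2 (without Root TRAP CK replicate 3 or Shoot TRAP CK replicate 3), and of UGT74B1 and SOT18 (without Shoot TRAP CK replicate 2 or 3). With reads recovered from the TPM column MYB51 (adjusted p 0.102) and CYP81F2 (0.059) were not called. That setting replaces only Root Total MgD replicate 3, which is in neither group compared here. The log2 differences stayed at -0.75 and 1.685, and the calls changed only through the model shared by all libraries. With only the groups compared in the fit MYB51 (edgeR adjusted p 0.065), UGT74B1 (0.081), SOT18 (0.0707), SUR1 (0.122) and CYP79B3 (0.0754) were not called. Without the low-count filter the MYB34 call ended (edgeR adjusted p 0.0523). With library size only the split was 16 higher and 9 lower.

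TRAP RNA was then compared with total RNA within root, to see which of these transcripts the tagged ribosomes held. Enzyme transcripts of both branches were mostly higher in TRAP RNA and the regulators were not. Under CK, 20 of 27 enzymes and carriers measured were higher and none was lower, while 4 of 5 measured MYB regulators were lower. That makes 20 higher and 4 lower among the 32 genes measured, against 22.6% higher and 25.5% lower of 20311 genes tested, with a median log2 difference of 0.67 against -0.06 for all genes. By role the numbers higher were 5 of 9 for chain elongation, 7 of 8 for the core, both shared genes and 6 of 8 indole enzymes.

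GSTU20 rose most clearly in the aliphatic branch. It was at 138, 98.1 and 144 TPM in root total and 552, 359 and 282 TPM in root TRAP RNA, with no overlap (log2 2.15 ± 0.30, adjusted p 0.000129). CYP79F1, although low, moved from 2.43 ± 0.516 to 9.92 ± 1.16 CPM in root (2.03 ± 0.36, adjusted p 0.000628). IPMI2, a subunit of the isomerase of the elongation cycle, stood at 543, 462 and 599 TPM in total and 872, 891 and 690 TPM in TRAP RNA (1.10 ± 0.17).

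The remaining calls in the aliphatic branch were smaller. AT2G31790 (0.90 ± 0.15), SOT18 (0.95 ± 0.17), SOT17 (0.79 ± 0.17), BCAT4 (0.74 ± 0.21), CYP83A1 (0.73 ± 0.21), MAM1, MAM3 and IPMDH1 (each 0.57) and CYP79F2 (0.46 ± 0.15) were higher. The calls of MAM1, IPMDH1, CYP79F2 and CYP83A1 each fell away in at least 1 omission of a single library: for CYP83A1 without Root TRAP CK replicate 2 (log2 0.58, adjusted p 0.052), for CYP79F2 without Root Total CK replicate 2 (0.37, 0.0892) or Root TRAP CK replicate 2 (0.42, 0.0594), for MAM1 without any of 4 libraries (Root Total CK replicate 1 or 2, Root TRAP CK replicate 1 or 2; adjusted p 0.0506 to 0.0937) and for IPMDH1 without any of 4 (Root Total CK replicate 1 or 2, Root TRAP CK replicate 2 or 3; 0.057 to 0.0974). With the replicate number as a block BAT5, the plastid carrier for the keto acids, was lower (log2 -0.48, adjusted p 0.0392). With the original library number of the submitters' table in its place BAT5 was lower too (-0.58, adjusted p 0.0289) and CYP79F2 was not called (0.37, adjusted p 0.0564). With only the groups compared in the fit MAM3 (adjusted p 0.0548), MAM1 (0.0589), IPMDH1 (0.069) and CYP79F2 (0.0918) were not called. IPMI1, not called in the main fit (0.51, adjusted p 0.0548), was higher with DESeq2 (0.53, adjusted p 0.0336). It was also higher with all 24 libraries in one model (0.53, adjusted p 0.0376).

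In the indole branch GSTF9 was at 3667, 2802 and 3330 TPM in total and 7442, 7320 and 7420 TPM in TRAP RNA, so all 3 TRAP libraries were above all total libraries (log2 1.66 ± 0.18, adjusted p 1.98e-05). UGT74B1 stood at 203, 188 and 203 TPM in root total and 305, 277 and 304 TPM in root TRAP RNA (1.07 ± 0.14), and SOT16 at 395, 289.8 and 329.9 TPM in root total and 403, 511 and 696 TPM in root TRAP RNA (1.14 ± 0.22). GSTF10 was higher by 1.44 ± 0.28.

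CYP79B2 and CYP79B3 were called higher (1.04 ± 0.32 and 0.95 ± 0.28), but replicate 3 of Root TRAP CK carried much of the difference. Without it the log2 differences were 0.50 (adjusted p 0.0971) and 0.52 (0.0741), and the calls also ended without Root Total CK replicate 2 (0.89 for both, adjusted p 0.0727 and 0.0533). With only the groups compared in the fit CYP79B2 was not called (adjusted p 0.0538). CYP83B1 (0.81 ± 0.32, adjusted p 0.051) and CYP81F2 (-1.22 ± 0.61, adjusted p 0.117) were not called. CYP83B1 was called higher with DESeq2 (adjusted p 0.0229), with median-ratio size factors (0.0463) and with all 24 libraries in one model (0.0114). CYP81F2 was called lower with library size only (-1.71, adjusted p 0.035).

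The regulators lay on the other side. MYB28 was at 45.05, 78.7 and 72.7 TPM in root total and 12.8, 29.3 and 13.1 TPM in root TRAP RNA (log2 -1.33 ± 0.29, adjusted p 0.00244). MYB51 was at 23.3, 51.6 and 41.3 TPM in root total and 5.89, 7.60 and 12.3 TPM in root TRAP RNA (-1.66 ± 0.29), and MYB122 at 13.9, 20.4 and 16.1 TPM in root total and 2.71, 3.67 and 4.45 TPM in root TRAP RNA (-1.72 ± 0.33). For these 3 genes all TRAP libraries were below all total libraries. MYB29 was also called lower (-2.86 ± 0.87), on 4 TRAP and 56 total counts, and the call was lost without Root TRAP CK replicate 3 (log2 -2.27, adjusted p 0.0551). MYB34, at 35.04, 128 and 119 TPM in root total and 24.5, 51.6 and 51.3 TPM in root TRAP RNA, was not called (-0.63 ± 0.41) but was with the replicate block (log2 -0.55, adjusted p 0.0275).

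The size of these root differences depends on the scaling. Library size only moved the median over the 96 listed genes by -0.49 and left 9 higher and 7 lower, and limma on log2(TPM + 1) gave 9 higher and 4 lower of 31. CYP79F2 then had a log2 difference of -0.024 with library size only and -0.021 with limma. Markers of other cells moved too: of 8 root markers 7 were lower in root TRAP RNA, among them CASP1 and CASP2 of the endodermis and RHD6 and EXPA7 of root hairs, with sums of 348 to 457 TPM in total and 71.0 to 91.8 TPM in TRAP RNA. Of 7 phloem markers 5 were higher (185 to 230 against 333 to 373 TPM) and of 20 photosynthesis genes 14 were higher and 1 lower (1668 to 1926 against 2869 to 5739 TPM). Their part in the differences of the glucosinolate genes was not tested.

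Under MgD the root comparison of TRAP with total RNA gave 16 higher and 5 lower of 32, against 24.5% and 28% of 20311 genes, with a median of 0.43. Chain elongation had 2 higher, BCAT4 (0.80 ± 0.21) and IPMI2 (0.77 ± 0.17), and BAT5 lower (-0.75 ± 0.21). Of the core 6 were higher, led by CYP79F1 (2.12 ± 0.38) and GSTU20 (1.61 ± 0.29), and 7 of 8 indole enzymes were higher, among them GSTF9 (1.55 ± 0.17), SOT16 (1.36 ± 0.22) and CYP83B1 (1.08 ± 0.32). MYB28 (-1.52 ± 0.29), MYB34 (-1.56 ± 0.42), MYB51 (-1.78 ± 0.29) and MYB122 (-1.63 ± 0.32) were lower. With reads recovered from the TPM column the MYB122 call ended (log2 -1.31, adjusted p 0.0571), and with the replicate block MAM3 was called higher (0.41, adjusted p 0.0238). Library size only gave 4 higher and 8 lower and limma 6 and 6. Of the markers, 7 of 8 root genes were lower (346 to 529 TPM in total and 72.7 to 85.7 TPM in TRAP RNA), 6 of 7 phloem genes were higher (153 to 232 and 402 to 503 TPM), and 18 of 20 photosynthesis genes were higher and 1 lower (877 to 1053 and 2561 to 4798 TPM). Their part was not tested.

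Several of these MgD calls were lost when 1 library was left out. CYP83A1 lost its call without any of 5 of the 6 libraries, the exception being Root TRAP MgD replicate 1 (adjusted p 0.0509 to 0.214), and SUR1 without any of 4, Root Total MgD replicate 2 or 3 and Root TRAP MgD replicate 2 or 3 (0.0651 to 0.125). CYP79B3 and CYP83B1 lost theirs without Root Total MgD replicate 3 (adjusted p 0.0525 and 0.056).

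In shoot the enzymes were higher in TRAP RNA almost without exception. Under CK 26 of 27 measured enzymes and carriers were called higher and none lower, and among 5 measured regulators MYB29 was higher and MYB28 lower. The 32 genes thus gave 27 higher and 1 lower, against 21.3% and 23.6% of 19341 genes, with a median log2 difference of 1.33 against -0.03 for all genes. All 9 elongation genes, all 8 measured core genes, both shared genes and 7 of 8 indole enzymes were among the 27. In shoot this contrast and the lane label cannot be told apart.

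GSTU20 was at 254, 245 and 346 TPM in shoot total and 2056, 1729 and 1711 TPM in shoot TRAP RNA (log2 2.60 ± 0.18, adjusted p 3.85e-08). CYP83A1 was at 355, 330 and 410 TPM in shoot total and 1500, 1285 and 1225 TPM in shoot TRAP RNA (1.77 ± 0.13, adjusted p 2.2e-08), and AT2G31790 at 102, 82.1 and 104 TPM in shoot total and 309.9, 242 and 228 TPM in shoot TRAP RNA (1.33 ± 0.13). Each of these had all TRAP libraries above all total libraries. SOT18 (117, 98.1 and 117 TPM in shoot total and 475, 342 and 327 TPM in shoot TRAP RNA, log2 1.69 ± 0.15) did as well.

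Both CYP79F genes rose, CYP79F1 from 69.6, 70.2 and 116 to 344, 238 and 256 TPM (1.61 ± 0.28) and CYP79F2 from 5.79, 5.47 and 6.76 to 17.97, 11.7 and 14.9 TPM (1.21 ± 0.17). Chain elongation ranged from 0.53 for IIL1, the large subunit of the isomerase, to 2.04 for BCAT4. Both synthases rose, MAM1 by 1.85 ± 0.20 and MAM3 by 1.25 ± 0.15.

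In the indole branch CYP79B2 rose from 33.7, 26.9 and 39.4 TPM in total to 143, 141 and 123 TPM in TRAP RNA (1.93 ± 0.15, adjusted p 4.62e-08) and CYP79B3 from 42.95, 42.5 and 56.8 to 97.9, 104 and 112 TPM (1.04 ± 0.13). SOT16 was at 150.5, 114 and 133 TPM in shoot total and 543, 461 and 386 TPM in shoot TRAP RNA (1.70 ± 0.14), and UGT74B1 at 76.7, 67.5 and 70.5 TPM in shoot total and 217, 172 and 175 TPM in shoot TRAP RNA (1.29 ± 0.11). CYP83B1 was at 377, 293 and 344 TPM in shoot total and 1014, 902 and 821 TPM in shoot TRAP RNA (1.33 ± 0.13). None of these 5 genes overlapped between RNA types. CYP81F2, at 3.29, 1.91 and 2.10 TPM in shoot total and 4.48, 6.60 and 3.05 TPM in shoot TRAP RNA, overlapped and was not called (0.85 ± 0.36), but was called higher with a block for the submitters' library number (log2 0.78, adjusted p 0.0282).

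The regulators moved little. MYB28 was at 51.97, 54.5 and 55.3 TPM in shoot total and 34.7, 35.4 and 51.8 TPM in shoot TRAP RNA (log2 -0.52 ± 0.12, adjusted p 0.00246), and MYB29 at 49.6, 44.7 and 59.4 TPM in shoot total and 71.7, 75.3 and 71.7 TPM in shoot TRAP RNA (0.40 ± 0.14, adjusted p 0.0282). The MYB29 call was lost without any of 4 libraries (Shoot Total CK replicate 1 or 2, Shoot TRAP CK replicate 1 or 2; adjusted p 0.0651 to 0.114), and both calls were lost with all 24 libraries in one model (adjusted p 0.099 and 0.0817). MYB76 (0.67 ± 0.36), MYB34 (-0.05 ± 0.20) and MYB51 (0.55 ± 0.30) were not called, although with that block MYB51 was (log2 0.52, adjusted p 0.0169).

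Shoot MgD gave 27 higher and 2 lower of 32, against 22.1% and 23.7% of 19341 genes, with a median of 1.41. By role these were 9 elongation, 8 core, 2 shared and 7 indole genes and 1 regulator. The largest differences of the aliphatic branch were those of GSTU20 (2.67 ± 0.18), IPMI2 (2.42 ± 0.21) and BCAT4 (2.14 ± 0.21), and those of the indole branch CYP79B2 (1.90 ± 0.15), GSTF9 (1.71 ± 0.16) and SOT16 (1.58 ± 0.14). MYB29 was higher (0.56 ± 0.14) and MYB28 (-0.58 ± 0.12) and MYB34 (-0.64 ± 0.20) were lower. The MYB34 call ended without Shoot Total MgD replicate 1 (log2 -0.47, adjusted p 0.0766) or Shoot TRAP MgD replicate 1 (-0.59, 0.0681), and with all 24 libraries in one model MYB34 and MYB28 were not called (adjusted p 0.168 and 0.052). With the block for the submitters' library number MYB51 was higher (0.69, adjusted p 0.00168).

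Scaling mattered less in shoot, where library size only moved the median of the 97 listed genes by -0.10 under CK and -0.15 under MgD and left 26 higher and 1 lower, and 27 and 2. Guard cell markers were lower in shoot TRAP RNA (5 of 6 called, sums of 27.3 to 35.4 TPM in total and 11.4 to 17.2 TPM in TRAP RNA), 3 of 7 phloem markers were higher (296 to 347 against 471 to 568 TPM), and photosynthesis genes had 3 higher and 3 lower of 20. Their part in the shoot differences was not tested.

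**Figure D4:**
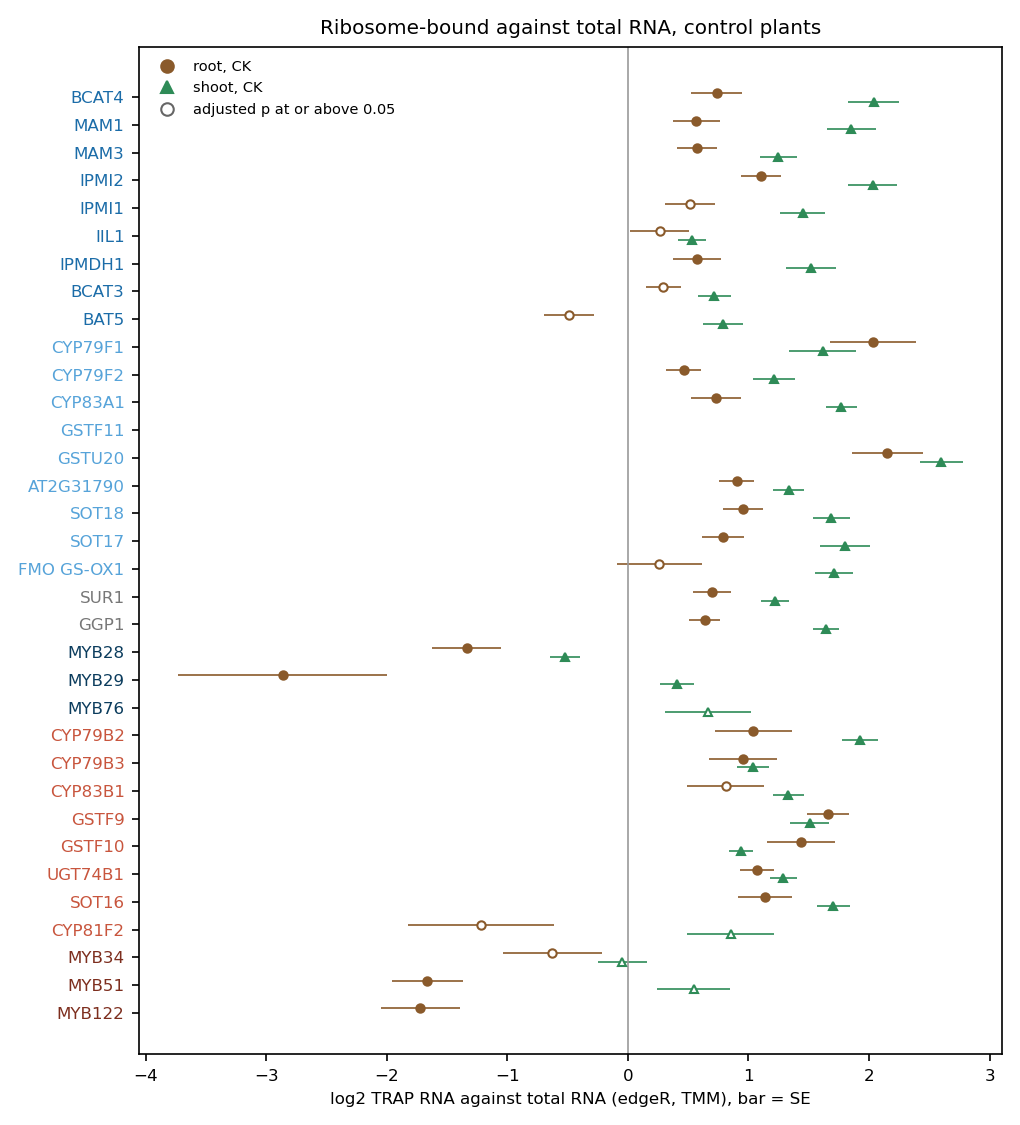
Log2 difference of TRAP from total RNA under CK with its SE for each measured gene, by role, in root (circles) and shoot (triangles); open symbols have an edgeR adjusted p of 0.05 or more. Aliphatic enzymes other than CYP79F1 lie further to the right in shoot than in root, GSTF9 is at 1.66 in root and 1.51 in shoot, and the MYB regulators lie at or left of 0 in root.

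Whether the TRAP difference itself differed between root and shoot was tested as an interaction under CK. This interaction and the lane label cannot be told apart either, because L002 marks the shoot TRAP libraries alone. It was smaller in root for 16 of 33 measured genes and larger for none, against 12.7% and 16.2% of 21163 genes, with a median of -0.76 against 0.03 for all genes. Of the 16, 7 were chain elongation genes, 5 core genes, 2 the shared genes and 2 regulators, MYB29 and MYB51. None was an indole enzyme in this model.

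BCAT4 shows the pattern: its TPM were 709.8, 1033 and 1236 in root total and 918, 1302 and 1282 in root TRAP RNA, against 61.6, 64.4 and 101 in shoot total and 389, 278 and 331 in shoot TRAP RNA. Root libraries overlapped on this scale and shoot libraries did not. The interaction was -1.32 ± 0.31 (adjusted p 0.00273). MAM1 (-1.31 ± 0.29), BAT5 (-1.30 ± 0.28), CYP83A1 (-1.06 ± 0.26), SOT17 (-1.04 ± 0.28) and GGP1 (-1.02 ± 0.17, adjusted p 0.00013) were also called. BAT5 went from 51.8, 69.4 and 81.9 to 33.6, 40.5 and 27.8 TPM in root, where all TRAP libraries were below all total libraries, and from 14.9, 15.5 and 21.7 to 36.5, 31.4 and 28.5 TPM in shoot, where all were above.

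Among indole enzymes the interactions ran from -2.09 ± 0.79 (adjusted p 0.055) for CYP81F2 and -0.91 ± 0.38 (0.0757) for CYP79B2 to 0.48 ± 0.31 (0.273) for GSTF10. No indole enzyme passed the threshold here, but CYP81F2 did with DESeq2 (-2.08, adjusted p 0.0343), with only the 4 groups in the fit (-2.09, 0.0355) and with library size only (-2.46, 0.0225). Library size only also called CYP79B2 (-1.26, adjusted p 0.0116), SOT16 (-0.93, 0.00618) and UGT74B1 (-0.60, 0.00329) smaller in root. The estimates of CYP79B2 and CYP81F2 were as large as some called in the aliphatic branch. Whether the branches differ from each other in this interaction was not tested. MYB51 had -2.22 ± 0.43 (adjusted p 0.000716) and MYB29, on few root counts, -3.27 ± 0.58. MYB76 gave no usable estimate, since it was at 0 in root.

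Leaving out 1 library changed the number called lower to between 10 and 19. Without Shoot TRAP CK replicate 1 it was 10, the genes lost being CYP79F2, SOT18, SUR1, IPMI1, IPMDH1 and MAM3. SUR1 also lost its call without Root Total CK replicate 3, Root TRAP CK replicate 1 or 2 or any Shoot Total CK library, MAM3 without Root Total CK replicate 3, Shoot Total CK replicate 1 or 3 or Shoot TRAP CK replicate 3, IPMDH1 without Root Total CK replicate 3 or Shoot Total CK replicate 1, and SOT18 without Root Total CK replicate 1, Root TRAP CK replicate 3 or Shoot Total CK replicate 2. With a block for the submitters' library number AT2G31790 (-0.54, adjusted p 0.0428), BCAT3 (-0.54, 0.0297), CYP79B2 (-1.12, 0.0244) and MYB28 (-0.93, 0.023) were smaller in root too, so CYP79B2 was the indole enzyme called under that model. With only the 4 groups involved in the fit 12 were lower, CYP79F2, SOT18, SUR1, IPMI1 and MAM3 being lost (adjusted p 0.0543 to 0.107) and CYP81F2 gained, with library size only 23, and with limma on log2(TPM + 1) 26. Photosynthesis markers moved the other way (15 of 20 larger in root and 1 smaller), and 4 of 7 phloem markers were larger in root and 1 smaller. The 8 root markers summed to 348 to 457 TPM in CK root total and 71.0 to 91.8 TPM in CK root TRAP RNA. In CK shoot their sum was 31.7 to 37.0 TPM in total and 37.7 to 42.7 TPM in TRAP RNA, so it fell in root only. The part of all these markers in the interaction was not tested.

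Magnesium deficiency for 1 day gave no call for any gene of the pathway. The comparisons were MgD against CK in root total, root TRAP, shoot total and shoot TRAP RNA. The interaction of RNA type and treatment measured the change in translational efficiency under MgD in root and in shoot. In all of these edgeR called 0 of 32 measured genes. It also called 0% of the 20311 genes in root and 0% of the 19341 genes in shoot. DESeq2 called 0 of the 32 in each as well, and limma on log2(TPM + 1) called 0. At an unadjusted p under 0.05 there were 3 genes in root total RNA, where 2.48% of all genes passed, 3 in root TRAP (11.2%) and 1 in root translational efficiency (4.77%). In shoot there were 0 in total RNA (1.84%), 3 in TRAP RNA (7.41%) and 0 in translational efficiency (3.95%). The counts in TRAP RNA are near that background. For the 3 genes in root total RNA the reads recovered from TPM gave smaller log2 values, 0.18 for GGP1, 0.41 for MYB122 and -1.09 for MYB29.

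The median log2 difference of the 32 genes from CK was 0.08 in root total, -0.14 in root TRAP, 0.03 in shoot total and 0.05 in shoot TRAP RNA, and -0.18 and 0.04 for translational efficiency in root and shoot. In root total RNA GGP1 had 0.32 ± 0.13 (unadjusted p 0.0296, edgeR adjusted p 0.9999), MYB122 0.73 ± 0.31 and MYB29 -1.69 ± 0.77 on 10 MgD counts. In root TRAP RNA GSTU20 had -0.73 ± 0.28, MYB122 0.83 ± 0.33 and IPMI2 -0.37 ± 0.17 (edgeR adjusted p from 0.399 to 0.435). In shoot TRAP RNA MYB29 had 0.37 ± 0.14, UGT74B1 -0.25 ± 0.11 and GSTF10 0.21 ± 0.10 (edgeR adjusted p from 0.594 to 0.663). The change in translational efficiency of GGP1 in root, MgD against CK, was -0.57 ± 0.18 (unadjusted p 0.00847, edgeR adjusted p 0.934). Its log2 difference of TRAP from total RNA in root was 0.64 under CK and 0.07 under MgD.

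The levels under MgD follow for the first steps of each branch. CYP79F1 was at 0.532, 1.07 and 1.10 TPM in root total, 2.94, 3.70 and 3.63 in root TRAP, 63.7, 112 and 94.4 in shoot total and 395, 301 and 295 in shoot TRAP RNA. CYP79F2 was at 374, 393 and 370.1 TPM in root total, 288, 379 and 306 in root TRAP, 4.71, 5.75 and 4.39 in shoot total and 16.1, 13.1 and 12.4 in shoot TRAP RNA. CYP83A1 was at 565, 778 and 610.1 TPM in root total, 499.7, 871 and 680.3 in root TRAP, 319, 402 and 385 in shoot total and 1480, 1257 and 1326 in shoot TRAP RNA. Root and shoot stayed separate for CYP79F1 and CYP79F2 under MgD, as under CK.

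In the indole branch CYP79B2 under MgD was at 469, 403 and 240.1 TPM in root total, 477, 700.4 and 742 in root TRAP, 30.2, 33.9 and 37.4 in shoot total and 143, 106 and 144 in shoot TRAP RNA. CYP79B3 was at 162, 189 and 164 TPM in root total, 156, 264 and 254 in root TRAP, 36.8, 50.3 and 44.2 in shoot total and 111, 96.8 and 99.7 in shoot TRAP RNA. CYP83B1 was at 912, 645 and 494 TPM in root total, 954, 1040 and 1072 in root TRAP, 311, 359 and 299.9 in shoot total and 999.6, 787 and 819.6 in shoot TRAP RNA. For CYP79B2 and CYP79B3 all root TRAP libraries were above all shoot TRAP libraries, and the CYP83B1 ranges of those groups overlapped.

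Of the aliphatic regulators under MgD, MYB28 was at 78.9, 95.7 and 69.8 TPM in root total, 17.1, 28.3 and 18.8 in root TRAP, 63.3, 60.3 and 69.98 in shoot total and 44.3, 43.2 and 45.9 in shoot TRAP RNA. MYB29 was at 0.122, 0.213 and 0.614 TPM in root total, 0.0757, 0 and 0 in root TRAP, 53.2, 56.8 and 77.3 in shoot total and 97.4, 82.6 and 105 in shoot TRAP RNA, and MYB76 was at 0 in root, 1.61, 1.97 and 1.64 in shoot total and 3.06, 2.21 and 1.88 TPM in shoot TRAP RNA. MYB29 had 10 counts in root total and 2 in root TRAP RNA. All 3 shoot libraries of either RNA type were above all root libraries for MYB29 and MYB76.

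In root total RNA the highest MgD library was 4.12 times the lowest for MYB51, 6.07 times for MYB122 and 35.1 times for CYP81F2, while MYB34 in shoot TRAP (1.04 times) and MYB51 in root TRAP RNA (1.09 times) were close between MgD libraries. MYB34 was at 81.6, 111 and 135 TPM in root total, 16.8, 26.5 and 35.5 in root TRAP, 30.6, 17.9 and 23.2 in shoot total and 15.4, 15.5 and 16.04 in shoot TRAP RNA. MYB51 was at 62.5, 36.2 and 15.2 TPM in root total, 10.3, 10.2 and 11.1 in root TRAP, 8.56, 11.9 and 6.93 in shoot total and 20.2, 14.9 and 10.9 in shoot TRAP RNA. MYB122 was at 37.2, 24.3 and 6.12 TPM in root total, 9.95, 5.07 and 4.11 in root TRAP, 0.0661, 0.0657 and 0.0671 in shoot total and 0.153, 0 and 0 in shoot TRAP RNA. CYP81F2, which acts late in the indole branch, was at 216, 62.02 and 6.16 TPM in root total and 64.8, 25.4 and 24.7 TPM in root TRAP RNA. In root total RNA the low TPM of MYB51, MYB122 and CYP81F2 all belong to replicate 3, the library whose TPM and counts come from different reads. Its counts gave 54.1, 19.3 and 66.9 TMM-scaled CPM for these 3 genes, beside 34.3, 20.2 and 58.3 in replicate 2. With reads recovered from the TPM the MgD difference of MYB122 in root total RNA was 0.41 and that of MYB51 -0.03, in place of 0.73 and 0.41.

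**Figure D5:**
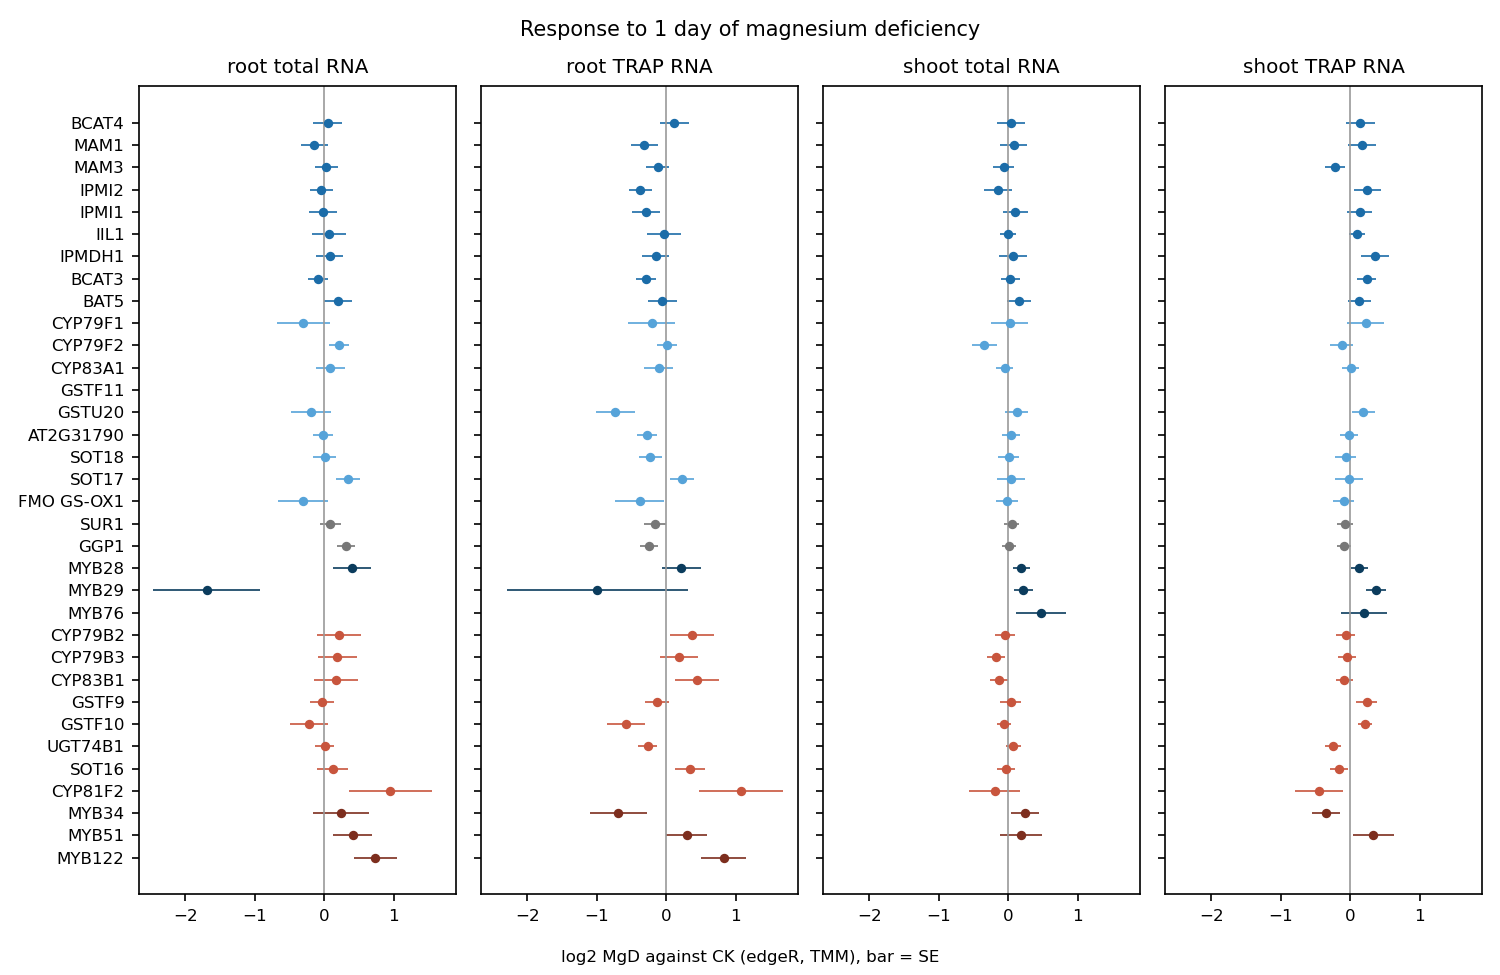
Log2 difference of MgD from CK with its SE for each measured gene, coloured by role, in root total, root TRAP, shoot total and shoot TRAP RNA (4 panels). No gene has an adjusted p under 0.05, and the widest spreads are those of MYB29 and CYP81F2 in root.

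A list of 32 other genes of the pathway, for side-chain changes, sulfate and glutathione supply, transport and regulation, was followed beside the 34. In CK total RNA 14 of 29 measured were higher and 7 lower in root, against 33.6% and 31.1% of all genes tested. IGMT1 and IGMT5, which methylate hydroxylated indole glucosinolates, had 102 and 49.9 CPM in root and 2.37 and 1.56 in shoot, log2 differences of 5.43 ± 0.54 and 5.07 ± 0.62. CYP81F4, which hydroxylates the indole ring, differed by 4.15 ± 0.48. Of its exon bases 88.2% are overlapped by AT4G37409 on the opposite strand, and 30.7% of those of GTR3 and 17% of those of GTR1 by other genes there, so their counts are less certain. The transporter GTR3 was higher in root (3.10 ± 0.22) and GTR1 lower (-1.84 ± 0.19), and FMO GS-OX3, a side-chain oxygenase, was lower (-2.84 ± 0.23), as FMO GS-OX1 was. In CK TRAP RNA the numbers were also 14 higher and 7 lower, against 35.9% and 32.9% of all genes tested.

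Against total RNA, 16 of 28 were higher and 1 lower in root TRAP RNA under CK and under MgD, and 17 higher and 2 lower in shoot TRAP RNA under CK and under MgD. Of all genes tested, 22.6% were higher and 25.5% lower in CK root, and 24.5% and 28% in MgD root. In shoot the shares were 21.3% and 23.6% under CK and 22.1% and 23.7% under MgD. GTR1 led in CK root, from 41.7 to 158 CPM (1.92 ± 0.20), and APK1, a kinase that supplies the sulfate donor of the sulfotransferases, led in CK shoot, from 130.4 to 485 CPM (1.90 ± 0.12). The tissue interaction was called lower in root for 4 of 29 and higher for 3, near the background of 12.7% and 16.2% of all genes tested. APK1 (-1.11 ± 0.22) and GGP3 (-0.84 ± 0.19), a relative of GGP1, were lower, while GTR1 (1.23 ± 0.26) and CYP81F4 (2.71 ± 0.75) were higher. In MgD against CK none of the 28 was called by edgeR, and at an unadjusted p under 0.05 there were 3 in root total, 2 in root TRAP, 1 in shoot total and 6 in shoot TRAP RNA, with 0 for translational efficiency in either tissue. Over all genes tested the shares were 2.48%, 11.2%, 1.84% and 7.41% in that order. For translational efficiency they were 4.77% in root and 3.95% in shoot.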

How the data were processed

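Total and TRAP messenger RNA were sequenced from 24 libraries in 8 groups of 3. The authors deposited read counts per gene, without normalization per the file headers and values, and a table of TPM for the same libraries. FastQC, Trimmomatic, STAR 2.7.6a and Subread 2.0.0 were used per the submitters' processing notes, with the genome build and settings not given in the sources used here. Between 81.8% and 92.3% of the counts up to 50 in a library were even, as when mates of a pair are counted singly, so counting error is larger than counts imply. Another 8 samples described as removed were not analysed here.

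The members and all gene lists were chosen with earlier results of these data known. Counts were tested with edgeR 4.0.16 (robust quasi-likelihood F test, filterByExpr, TMM, Benjamini-Hochberg over all genes tested, threshold 0.05) in R 4.3.3, with the 12 libraries of a tissue in one model, or all 24 for comparisons between tissues. SE of a log2 difference was derived from its F value. The change in translational efficiency under MgD and the tissue difference in TRAP were interaction terms. CPM are TMM-scaled within the model of the comparison. DESeq2 1.42.0, limma 3.58.1 and other scalings and models were alternatives. Values in every library were given for the 6 MYB genes, CYP79F1, CYP79F2, CYP79B2, CYP79B3, CYP83A1 and CYP83B1, and for genes among the 4 with the smallest p of each branch in a comparison. The steps were tested on simulated counts. For TRAP against total RNA in root (19882 genes) 35% of changes of 2-fold and 82% of 4-fold were recovered. The shares were 71% and 90% in shoot (19110 genes) and 24% and 76% for the tissue interaction (20689 genes). Only 100 genes per fold size were changed there, and all others had equal means in all groups. The simulation therefore cannot show how far the results depend on scaling.

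Same-numbered root TRAP and total libraries deviated together from their group means (6 of 6 correlations, 0.187 to 0.426), so label numbers pair the root RNA types. In shoot, RNA types were paired by the original library numbers of the submitters' library table (4 of 4 correlations, 0.223 to 0.333). Blocked values stand beside the results they change. Sequences, positions and motifs were read from the RefSeq TAIR10.1 genome with its annotation by locus, with Python 3.11.15 and Biopython 1.88.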

Additional observations from a re-analysis of the deposited data

Results flagged for a closer look

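The difference of TRAP from total RNA under CK differed between root and shoot, by the interaction test in edgeR, for 16 of the 33 measured genes, all smaller in root. Only shoot TRAP libraries carry lane label L002, so this difference and the lane cannot be told apart. In chain elongation the log2 interaction, root minus shoot, was -1.32 for BCAT4, -1.31 for MAM1, -1.30 for BAT5, -0.97 for IPMDH1, -0.96 for IPMI1, -0.95 for IPMI2 and -0.70 for MAM3. In the aliphatic core it was -1.47 for FMO GS-OX1, -1.06 for CYP83A1, -1.04 for SOT17, -0.77 for CYP79F2 and -0.76 for SOT18. The shared genes GGP1 and SUR1 had -1.02 and -0.55. Of the regulators, MYB29 had -3.27 and MYB51 -2.22.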

How the results depend on the processing

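Counts of called genes kept within 1.5 times of their reported values except as follows. For the tissue interaction limma on log2(TPM + 1) and on log2(TPM + 0.1) called 26 and 25, for TRAP against total in root CK both called 13, and in root MgD both called 12, as did library size only (12). The limma counts over all comparisons, and recovered reads in the CK and RNA type comparisons, were added after seeing the data. Leaving out 1 library gave 26 to 29 calls for root against shoot in total RNA, 24 to 25 in TRAP RNA, 10 to 19 for the interaction, 19 to 24 for root CK, 17 to 25 for root MgD, 27 to 29 for shoot CK, 28 to 31 for shoot MgD, and 0 to 0 for each MgD and translational efficiency comparison. Directions reversed only where scaling differed. In root against shoot total RNA, library size only, limma with a pseudocount of 1 and limma with 0.1 gave 0.47, 0.60 and 0.61 for AT2G31790, 0.37, 0.51 and 0.52 for BCAT3, 0.62, 0.75 and 0.76 for CYP83A1, 0.69, 0.83 and 0.84 for CYP83B1, and 0.13, 0.24 and 0.24 for MYB28. In root CK TRAP against total they gave -0.024, -0.021 and -0.021 for CYP79F2. In root MgD they gave -0.10, -0.093 and -0.093 for SUR1 and -0.46, -0.44 and -0.45 for BCAT3, and library size only gave -0.016 for CYP83A1 and -0.48 for GGP1. By construction these settings lack the TMM shift. The mean log2 ratio of aliphatic to indole enzymes without GSTF9 and GSTF10 was 2.05, 1.98, 1.89 and 1.35 in Root Total CK, Root Total MgD, Root TRAP CK and Root TRAP MgD and 1.36, 1.46, 1.78 and 2.01 in the shoot groups in that order. All ratios that follow keep GSTF9 and GSTF10 in the indole sum. From TMM-scaled CPM, not set per length, the ratio was -0.45 and -0.49 in Root TRAP CK and MgD. It was 0.37 and 0.43 in Shoot Total CK and MgD, and 0.73 and 0.79 in Shoot TRAP CK and MgD. With the shared genes in the aliphatic sum of TPM the ratio was 0.44, 0.50, 0.82 and 0.83 in those shoot groups. Leaving out 1 library gave -0.13 to 0.22, -0.04 to 0.23, -0.90 to -0.65, -0.88 to -0.64, 0.12 to 0.25, 0.21 to 0.26, 0.54 to 0.65 and 0.62 to 0.67 in the 8 groups, root total, root TRAP, shoot total, shoot TRAP, CK before MgD.

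With the label number as a replicate block, root CK gave 20 higher and 6 lower and the interaction 18 lower, and with the original number 19 and 5, and 20. Same-numbered libraries by label correlated over 0.1 in 4 of 6 pairs across root treatments, 3 of 6 across shoot RNA types and 2 of 6 across shoot treatments, and by original number in 3 of 4 and 4 of 4 across root and shoot treatments. Calls that a block changed and that are not given above were, by label, BCAT3 in root against shoot total RNA (-0.31, adjusted p 0.0308), CYP79B2 (-0.98, 0.0419) and MYB28 (-0.85, 0.0255) in the interaction and CYP81F2 in shoot CK (0.79, 0.0257), and, by original number, the loss of MYB28 in root against shoot total RNA and MYB51 in TRAP RNA (adjusted p 0.052 and 0.0516). Few counts limit CYP79F1, MYB29 and MYB76 in root and MYB122 in shoot.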
